A study of Homo sapiens with 9 samples.

Results

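The growth arrest genes described here are 10 genes whose products slow or stop the cell cycle or answer DNA damage and stress: GADD45A, GADD45B, GADD45G, CDKN1A, CDKN1B, CDKN2C, MDM2, BTG1, BTG2 and CCNG1. They were chosen by name among 58214 annotated genes, with earlier results of these data known. All 10 were abundant enough to be tested in every comparison, beside 17711 genes tested in at least 1. RNA came from K562 cells, a human erythroleukaemia line that lacks functional p53, which were transfected with siRNA and harvested on day 4. The 9 poly(A) libraries formed 3 groups of 3: cells given a non-targeting siRNA pool (SCR), cells given siRNAs against DHX34 (DHX34 knockdown) and cells given siRNAs against UPF1 (UPF1 knockdown). The study calls the replicates biological, all 9 come from a single line, and the labels name neither a batch nor a culture, so the p-values measure the spread between these libraries.

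GADD45 proteins are small stress-induced proteins that bind the kinase MAP3K4, the cyclin B1 complex of CDK1, and PCNA. CDKN1A, CDKN1B and CDKN2C encode the inhibitors p21, p27 and p18 of cyclin-dependent kinases. MDM2 is the ubiquitin ligase that degrades p53, CCNG1 encodes cyclin G1, and BTG1 and BTG2 are antiproliferative proteins that bind the CCR4-NOT deadenylase. UPF1 is the central helicase of nonsense-mediated decay (NMD), which degrades transcripts with premature stop codons and some normal mRNAs, and the mRNAs of GADD45A and GADD45B are known NMD targets. DHX34 is a helicase that acts in NMD. The comparison of either knockdown with SCR asks how these genes respond when the helicase is reduced, and the knockdowns were also compared with each other directly.

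The sequences below mark 3 places where isoforms of these genes part, and each is referred to where the isoform is described. They were read from GRCh38 on the plus strand, 5′ to 3′. The first spans the end of exon 2 of CCNG1 (chr5:163439506-163439535), with the first bases of the intron in capitals, and the isoform CCNG1-203 reads through it. The other 2 join the last bases of exon 1 of GADD45A (chr1:67685524-67685538) to the first bases of the next exon, in capitals: exon 2 in GADD45A-202 (chr1:67686025-67686039) and exon 3 in GADD45A-201 (chr1:67686350-67686364), which skips the 102 bases of exon 2.
CCNG1 exon 2 to intron 2: ctgtctaaaatgaagGTatgtttgaagcta
GADD45A-202 exon 1 to exon 2: gcagaagaccgaaagGATGGATAAGGTGGG
GADD45A-201 exon 1 to exon 3: gcagaagaccgaaagCGACCCCGATAACGT

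The libraries held 73478797 to 103625443 expected counts, the counts that salmon assigns to transcripts. DHX34 was at 42.6% of its SCR level in DHX34 knockdown cells and UPF1 at 40.2% in UPF1 knockdown cells (edgeR adjusted p 3.33e-07 and 2.41e-10), so neither transcript was lost completely. All 8 erythroleukaemia markers were expressed. Their summed level was 19962 to 21252 TPM (an abundance per transcript length) in SCR, 18811 to 20580 in DHX34 knockdown cells and 12740 to 13588 in UPF1 knockdown cells, and the part of this shift in the results was not tested. Among markers of other cells, KRT5, KRT14, PDGFRA, MS4A1 and CD8A were at 0 in all 9 libraries, and EPCAM, at 68.1 to 80.4 TPM, was the only other-cell marker above 4 TPM.

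Levels can be compared between genes only per transcript length, as TPM. In SCR the order ran from GADD45A (113.5 ± 4.89 TPM, SD, n = 3) through CCNG1 (83.0 ± 3.20), CDKN2C (51.3 ± 1.98), MDM2 (29.4 ± 3.38), CDKN1B (18.4 ± 1.09), BTG1 (12.4 ± 0.315), BTG2 (7.995 ± 0.725), CDKN1A (2.48 ± 0.105) and GADD45B (0.840 ± 0.156) to GADD45G (0.188 ± 0.100). No neighbours in this order overlapped over the SCR libraries. In the DHX34 knockdown CCNG1 (104.6 ± 2.02 TPM) stood above GADD45A (96.1 ± 0.659), and BTG2 (9.99 ± 0.317) and BTG1 (9.68 ± 0.821) overlapped. In the UPF1 knockdown the order was that of SCR, and no neighbours overlapped. Of the 3 GADD45 genes, GADD45A alone was abundant in K562 cells.

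Differences between groups were tested on counts summed per gene, and the levels below are CPM (counts scaled to library size by TMM), which are not comparable between genes of different length. A gene was called at an edgeR adjusted p of at most 0.005. After DHX34 knockdown 3 of the 10 members were called, CDKN1A up and GADD45A and BTG1 down, where 10.4% of all tested genes were called. After UPF1 knockdown 2 were called, CDKN1A up and BTG2 down, where 25.3% of all genes were called. Directly between the knockdowns 3 were called, GADD45A and BTG1 higher and BTG2 lower in the UPF1 knockdown, where 17.4% of all genes were called. The median log2 fold change of the 10 members was -0.12, -0.09 and 0.06 in the 3 comparisons, beside 0.02, 0.02 and 0.01 over all genes. The groups did not overlap for 8 members after DHX34 knockdown, for 6 after UPF1 knockdown and for 6 between the knockdowns, beside 41.5%, 50.5% and 45.7% of all genes.

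**Figure D1:**
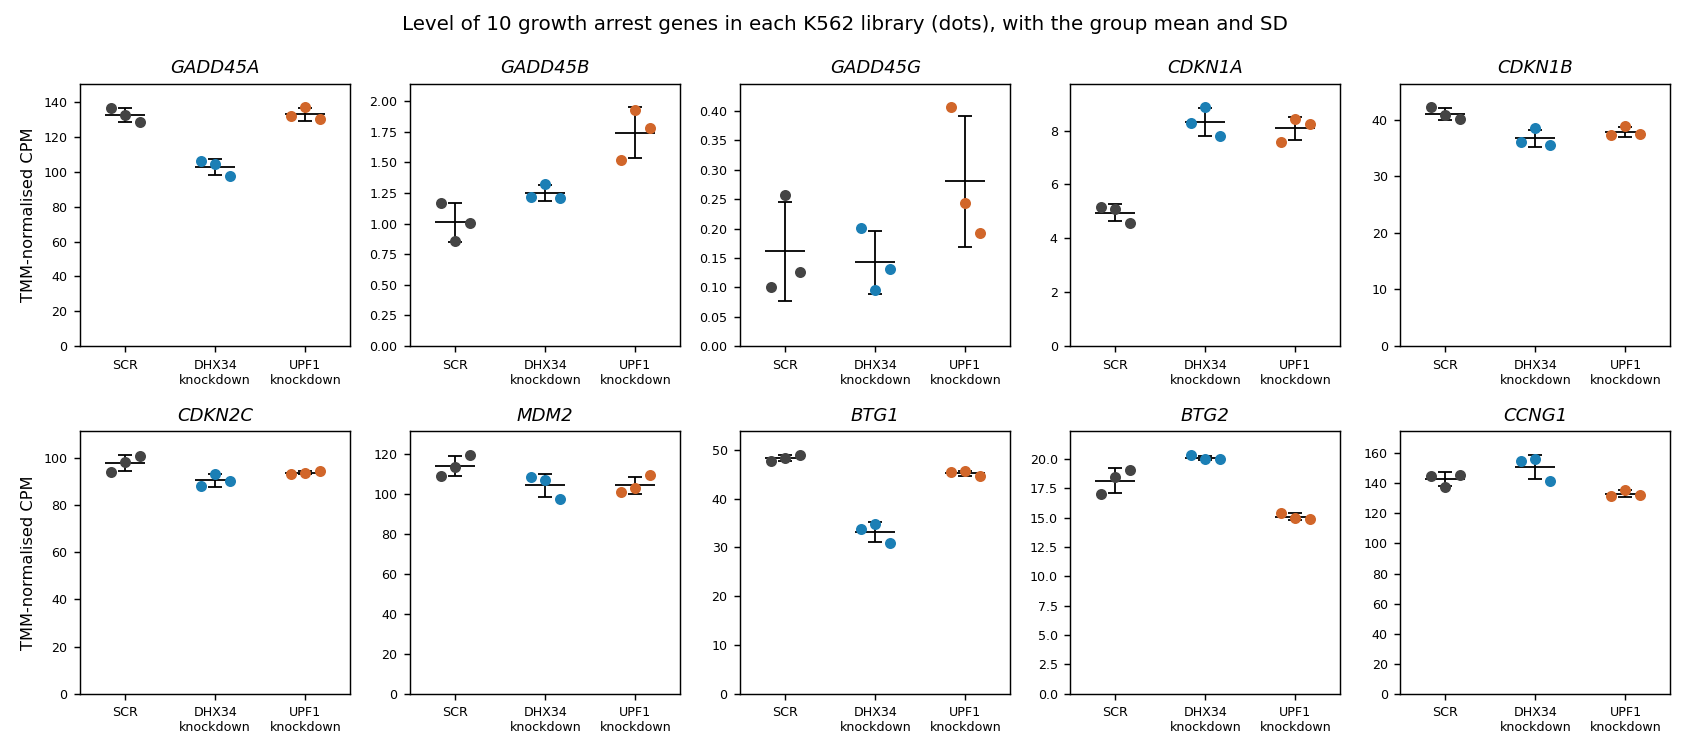
Level of each growth arrest gene (vertical axis, TMM-normalised CPM, each panel from 0) in the 3 SCR, 3 DHX34 knockdown and 3 UPF1 knockdown libraries (dots), with the group mean and SD (bars). GADD45A and BTG1 sit lower in the DHX34 knockdown than in the other groups, CDKN1A sits higher in both knockdowns, and BTG2 sits lowest in the UPF1 knockdown.

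GADD45A (ENSG00000116717, chromosome 1, 67685201 to 67688334) fell in the DHX34 knockdown and not in the UPF1 knockdown. It was at 136.6, 132.9 and 128.6 CPM in the SCR libraries, at 106.3, 104.4 and 97.8 in DHX34 knockdown cells and at 132.1, 137.1 and 130.2 in UPF1 knockdown cells. All 3 DHX34 knockdown libraries lay below the other 6, and the SCR and UPF1 knockdown libraries overlapped. The log2 fold change was -0.37 after DHX34 knockdown (SE 0.045, edgeR adjusted p 0.000227), a level 0.774 times that of SCR. After UPF1 knockdown it was -0.003 (SE 0.034, edgeR adjusted p 0.956). The direct difference between the knockdowns was 0.38 (SE 0.038, edgeR adjusted p 2.31e-05). Both calls held in all 6 fits that left out 1 library. In these bulk libraries less RNA per cell and fewer cells with the transcript cannot be told apart, here or for the genes below.

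GADD45B (ENSG00000099860, chromosome 19, 2476122 to 2478259) had its highest values after UPF1 knockdown, at a level where each library held only 60 to 185 counts of it. It was at 1.17, 0.855 and 1.00 CPM in SCR, at 1.22, 1.32 and 1.21 in DHX34 knockdown cells and at 1.52, 1.93 and 1.78 in UPF1 knockdown cells. The 3 groups did not overlap. The log2 fold change after UPF1 knockdown was 0.78 (SE 0.19), with an edgeR adjusted p of 0.00579, just outside the limit of 0.005. DESeq2 (adjusted p 0.00324), edgeR without a filter on low counts (0.00323), length-scaled counts (0.00424), limma on log2(TPM + 0.5) (0.00115) and 1 edgeR fit of all 9 libraries (0.00362) put it inside that limit, and none of the 6 edgeR fits that left out a library did. After DHX34 knockdown the difference was 0.31 (SE 0.20, edgeR adjusted p 0.31), and between the knockdowns it was 0.49 (SE 0.17, edgeR adjusted p 0.0445).

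GADD45G (ENSG00000130222, chromosome 9, 89605012 to 89606555) was near the limit of detection, with 7 to 31 counts a library. Its CPM was 0.0997, 0.257 and 0.127 in SCR, 0.201, 0.0954 and 0.132 in DHX34 knockdown cells, and 0.406, 0.243 and 0.192 in UPF1 knockdown cells. The groups overlapped, and a difference between them was not detectable at this depth. The log2 differences were -0.14 (SE 0.54) after DHX34 knockdown and 0.78 (SE 0.50) after UPF1 knockdown, with edgeR adjusted p of 0.881 and 0.244.

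CDKN1A (ENSG00000124762, chromosome 6, 36676460 to 36687337), which encodes the kinase inhibitor p21, rose in both knockdowns. The SCR libraries held 5.17, 5.10 and 4.59 CPM. The DHX34 knockdown libraries held 8.29, 8.86 and 7.80 CPM, and the UPF1 knockdown libraries 7.59, 8.42 and 8.24. All 6 knockdown libraries lay above all 3 SCR libraries, and the knockdowns overlapped with each other. On the log2 scale it gained 0.75 after DHX34 knockdown (SE 0.097, edgeR adjusted p 0.00035) and 0.70 after UPF1 knockdown (SE 0.089, edgeR adjusted p 5.95e-05), or 1.68 and 1.62 times the SCR level. These comparisons share the SCR libraries. The direct difference between the knockdowns was -0.03 (SE 0.079, edgeR adjusted p 0.832). CDKN1A was called under all 7 alternative settings and in all 6 fits without 1 library, in each comparison with SCR.

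CDKN1B (ENSG00000111276, chromosome 12, 12685498 to 12722369), which encodes p27, was not called in any comparison. It was at 42.1, 40.9 and 40.04 CPM in SCR, 36.03, 38.4 and 35.5 in DHX34 knockdown cells and 37.3, 38.9 and 37.4 in UPF1 knockdown cells. Every knockdown library lay below every SCR library, by a log2 difference of -0.16 (SE 0.049, edgeR adjusted p 0.0295) and -0.12 (SE 0.040, edgeR adjusted p 0.0274). CDKN2C (ENSG00000123080, chromosome 1, 50960745 to 50974634), which encodes p18, had log2 differences of -0.11 (SE 0.040) after DHX34 knockdown and -0.07 (SE 0.033) after UPF1 knockdown, and its edgeR adjusted p was 0.0595 and 0.13. Its level ran from 94.1 to 100.9 CPM in SCR, from 88.0 to 93.3 in DHX34 knockdown cells and from 93.3 to 94.4 in UPF1 knockdown cells.

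MDM2 (ENSG00000135679, chromosome 12, 68808177 to 68845544) was not called at the gene level in the edgeR fits reported here. It was at 109.0, 113.4 and 119.3 CPM in SCR, 108.2, 106.9 and 97.5 in DHX34 knockdown cells and 101.1, 102.7 and 109.2 in UPF1 knockdown cells. The log2 difference was -0.13 after either knockdown (SE 0.050 and 0.040, edgeR adjusted p 0.0804 and 0.0165). The libraries of the UPF1 knockdown overlapped those of SCR, those of the DHX34 knockdown did not, and the knockdowns overlapped with each other. After UPF1 knockdown DESeq2 (adjusted p 0.00215), edgeR without a filter on low counts (0.0018) and edgeR with a replicate block (0.00379) called MDM2 lower, and none of the 6 fits without 1 library did.

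BTG1 (ENSG00000133639, chromosome 12, 92140278 to 92145846, minus strand) had the largest fall of the 10 members in the DHX34 knockdown. Its SCR libraries held 47.8, 48.4 and 48.9 CPM, its DHX34 knockdown libraries 33.8, 34.7 and 30.9 and its UPF1 knockdown libraries 45.4, 45.6 and 44.6. The DHX34 knockdown lay far below the other groups, and the UPF1 knockdown lay a little below SCR, with no overlap. The log2 fold change was -0.55 after DHX34 knockdown (SE 0.052, edgeR adjusted p 5.08e-05), 0.684 times the SCR level. After UPF1 knockdown it was -0.10 (SE 0.035, edgeR adjusted p 0.0312), which was not called. The direct difference was 0.46 (SE 0.047, edgeR adjusted p 3.12e-05).

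BTG2 (ENSG00000159388, chromosome 1, 203305491 to 203309602), the relative of BTG1, fell after UPF1 knockdown, and between the knockdowns it differed in the opposite direction to BTG1. It was at 17.0, 18.4 and 19.1 CPM in SCR, 20.3, 20.01 and 19.98 in DHX34 knockdown cells and 15.4, 15.0 and 14.9 in UPF1 knockdown cells, and the 3 groups did not overlap. The fall after UPF1 knockdown was 0.28 on the log2 scale (SE 0.057, edgeR adjusted p 0.00196). The difference after DHX34 knockdown was 0.14 (SE 0.058, edgeR adjusted p 0.0924). Between the knockdowns BTG2 differed by -0.40 on this scale (SE 0.051, edgeR adjusted p 0.000144). The call after UPF1 knockdown held without SCR replicate 1 but was lost without each of the other 5 libraries, with edgeR adjusted p of 0.00591 to 0.01, and with length-scaled counts (0.0289), while the direct difference was called in all 6 fits without 1 library.

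CCNG1 (ENSG00000113328, chromosome 5, 163437569 to 163446151) was not called on summed counts in the edgeR fits reported here. It was at 144.9, 137.5 and 145.7 CPM in SCR, 154.7, 155.9 and 141.5 in DHX34 knockdown cells and 131.3, 135.6 and 132.3 in UPF1 knockdown cells. The UPF1 knockdown libraries lay below all the others, with log2 differences of -0.11 from SCR (SE 0.031, edgeR adjusted p 0.0144) and -0.17 from the DHX34 knockdown (SE 0.039, edgeR adjusted p 0.00733). Without DHX34 knockdown replicate 3, the lowest of its group, the direct difference was -0.22 and was called (edgeR adjusted p 5.27e-05).

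**Figure D2:**
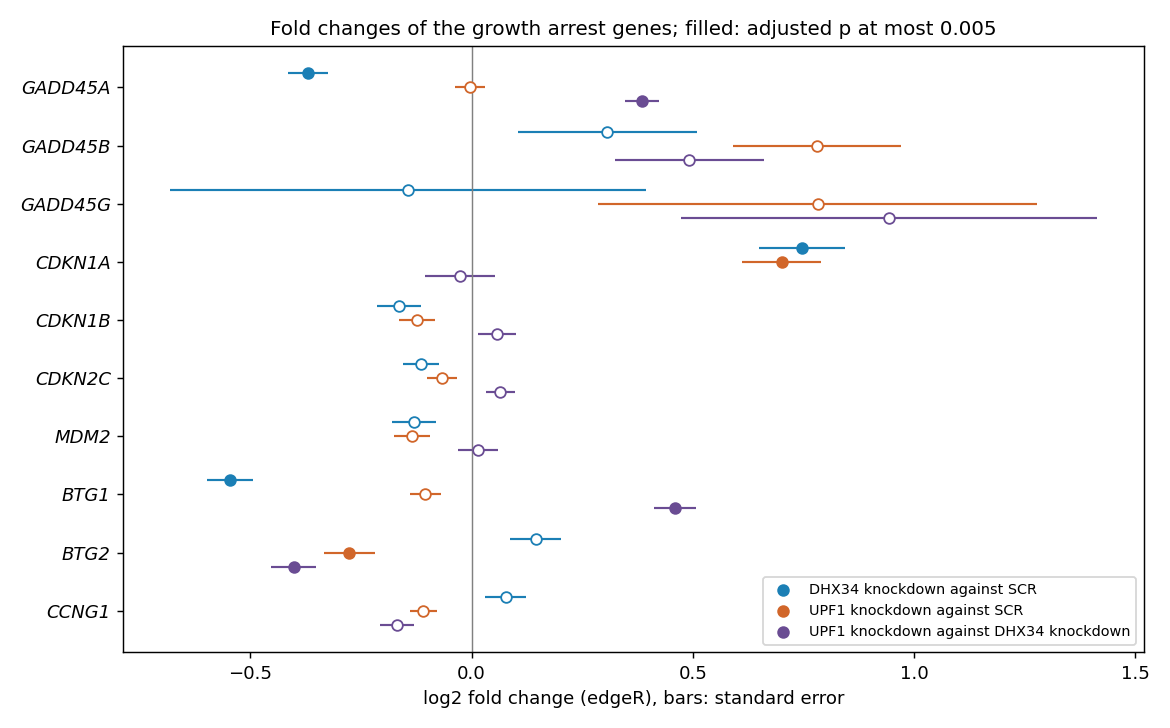
Log2 fold change of each growth arrest gene (horizontal axis) with its standard error in the 3 comparisons, filled where the edgeR adjusted p was at most 0.005. GADD45A and BTG1 lie at -0.37 and -0.55 after DHX34 knockdown and near 0 after UPF1 knockdown, CDKN1A lies at 0.75 and 0.70, and BTG2 lies at 0.14 and -0.28.

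The TPM scale gave other values for these genes. The median log2 difference of all tested genes was 0.13 after DHX34 knockdown, 0.17 after UPF1 knockdown and 0.03 between the knockdowns on log2(TPM + 0.5), where on counts it was 0.02 or less. The calls over all genes were 942 up and 826 down on counts and 786 up and 93 down on TPM after DHX34 knockdown, and 2131 up and 2214 down against 3213 up and 282 down after UPF1 knockdown. Relative to that median GADD45A lay at -0.37 after DHX34 knockdown and BTG1 at -0.48, BTG2 lay at -0.22 after UPF1 knockdown and GADD45B at 0.76, and CDKN1A lay at 0.61 and 0.59. Without that reference, limma on log2(TPM + 0.5) did not call GADD45A (adjusted p 0.00512) or BTG1 (0.0171) after DHX34 knockdown, BTG2 after UPF1 knockdown (0.692), or BTG1 (0.006) and BTG2 (0.0107) between the knockdowns. CCNG1 was called on this scale and not in the reported fits on counts. Its summed TPM was 85.5, 79.4 and 84.0 in SCR, 105.7, 105.8 and 102.3 in DHX34 knockdown cells and 100.9, 114.2 and 106.1 in UPF1 knockdown cells. All 6 knockdown libraries lay above SCR on this scale, and limma on log2(TPM + 0.5) called CCNG1 higher after DHX34 knockdown (0.33, adjusted p 0.00191) and after UPF1 knockdown (0.37, adjusted p 0.00122), 0.20 above the median of all genes in each case.

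The 10 genes have 80 transcripts in the files, of which 51 held at least 10 counts over the 9 libraries. After DHX34 knockdown none of 30 tested isoforms was called by edgeR, where 0.0463% of all transcripts were called. At an unadjusted p below 0.05 there were 9, and DESeq2 called 3. After UPF1 knockdown 2 of 32 were called, both down, where 2.59% of all transcripts were called, and DESeq2 called 7. Between the knockdowns edgeR called none of 33, where 1.05% of all transcripts were called, with 10 at an unadjusted p below 0.05 and 5 called by DESeq2. The shares of all transcripts are for edgeR calls only. The counts at an unadjusted p below 0.05 and by DESeq2 have no such share beside them, so they cannot set the members apart. In simulated data the transcript fits recovered 36.5% to 37% of 2-fold changes, drawn from transcripts with a mean of at least 5 CPM. Most changes of that size in single isoforms would thus have been missed.

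One coding isoform held most counts of each member. Of the GADD45A counts, GADD45A-202 took 94.3% in SCR and 95.5% and 94.5% after DHX34 and UPF1 knockdown. Its level was 103.1, 102.2 and 97.2 TPM in SCR, 89.4, 87.8 and 86.1 in DHX34 knockdown cells and 114.5, 119.6 and 114.1 in UPF1 knockdown cells. It was lowest in all 3 DHX34 knockdown libraries, with a log2 fold change of -0.36 on counts (edgeR adjusted p 0.0246, not called). Its TPM was highest after UPF1 knockdown, where its log2 difference on counts was -0.044 (edgeR adjusted p 0.544). GADD45A-201, which joins exon 1 to exon 3 as printed above, was at 6.30, 8.37 and 5.96 TPM in SCR, 3.67, 4.94 and 4.35 in DHX34 knockdown cells and 9.81, 9.06 and 6.33 in UPF1 knockdown cells. It too was lowest in the DHX34 knockdown, without overlap with SCR (edgeR adjusted p 0.107). The retained-intron isoforms GADD45A-203 and GADD45A-204 together made up 4.29% to 5.67% of GADD45A TPM in SCR, 3.36% to 5.32% in DHX34 knockdown cells and 3.06% to 4.32% in UPF1 knockdown cells, and the groups overlapped.

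CDKN1A-201, the main p21 transcript, was at 2.29, 1.88 and 2.17 TPM in SCR, 4.10, 4.55 and 4.25 in DHX34 knockdown cells and 3.98, 4.45 and 4.23 in UPF1 knockdown cells, so all knockdown libraries lay above SCR. Its log2 fold change on counts was 0.86 and 0.74 (edgeR adjusted p 0.0342 and 0.0175, not called). BTG1-201 held 99.8% to 99.9% of the BTG1 counts in every group and had a log2 fold change of -0.55 after DHX34 knockdown (edgeR adjusted p 0.0133, not called). For CDKN1B, CDKN1B-201 held 99.4% of the counts in every group, and for CDKN2C, CDKN2C-203 held 87.5%, 86.0% and 89.4% in SCR and in the DHX34 and UPF1 knockdowns. The coding isoform GADD45B-201 was at 0.949, 0.732 and 0.661 TPM in SCR, 1.11, 0.802 and 1.16 in DHX34 knockdown cells and 1.11, 1.71 and 1.52 in UPF1 knockdown cells, where all 3 libraries lay above SCR (edgeR adjusted p 0.242).

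**Figure D3:**
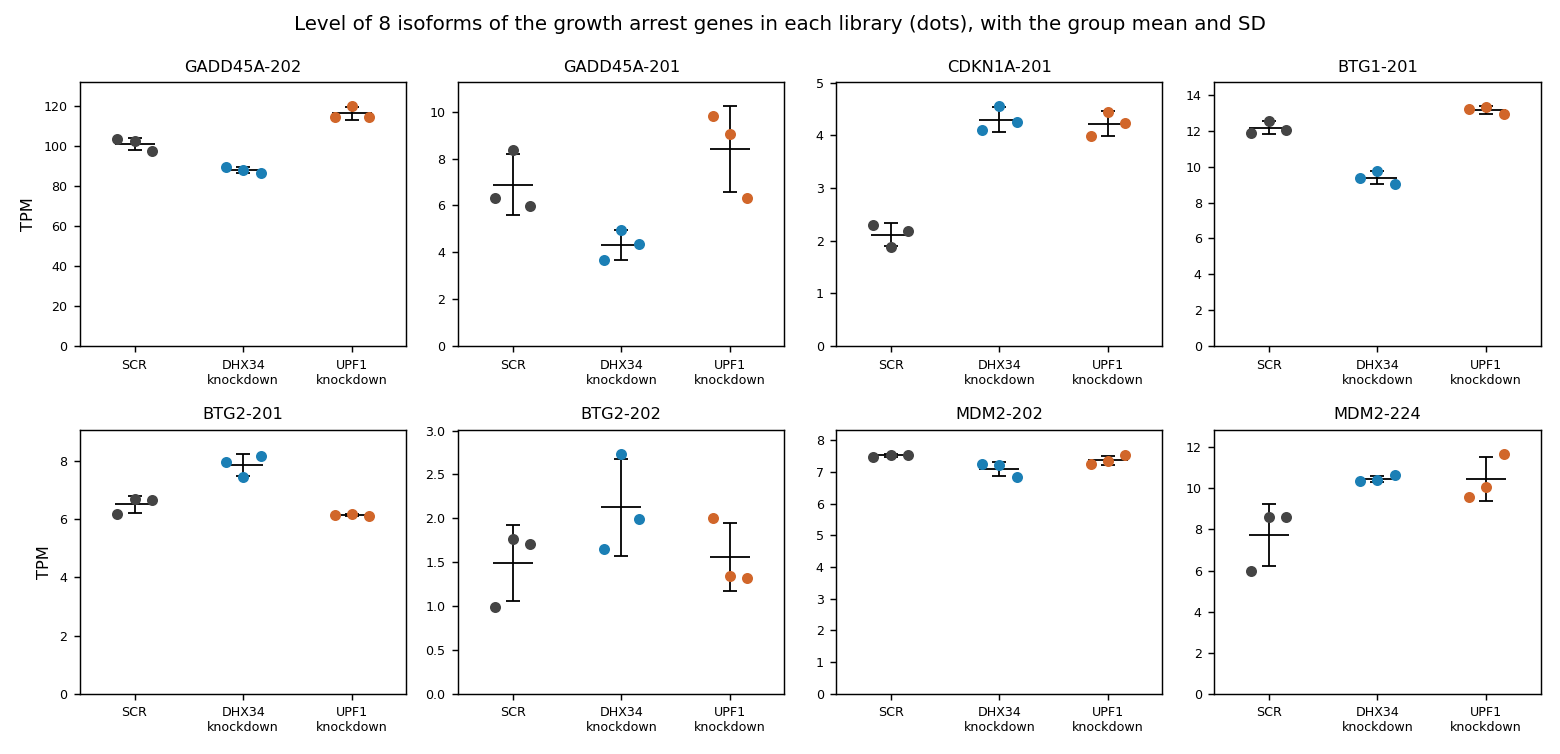
Level of 8 isoforms (vertical axis, TPM, each panel from 0) in the 9 libraries (dots) with the group mean and SD. GADD45A-202, GADD45A-201 and BTG1-201 sit lowest in the DHX34 knockdown, CDKN1A-201 and MDM2-224 sit higher in both knockdowns than in SCR, and BTG2-202 overlaps between all groups.

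Transcripts annotated as NMD substrates exist for GADD45B, MDM2 and BTG2. BTG2-202 has the coding region of BTG2 but removes an intron of 1449 bases from the 3′ UTR (chr1:203307689-203309137), which leaves an exon junction 253 bases after the last coding base. Junctions at such a distance after a stop codon are the classical trigger of NMD. It made up 13.8%, 20.9% and 20.3% of BTG2 TPM in SCR, 17.2%, 26.8% and 19.6% in DHX34 knockdown cells and 24.6%, 17.9% and 17.7% in UPF1 knockdown cells. The groups overlapped, and its log2 differences on counts were 0.36 and -0.18 (edgeR adjusted p 0.714 and 0.808). The 9 NMD-annotated isoforms of MDM2 together made up 9.21% to 13.01% of MDM2 TPM in SCR, 11.1% to 14.9% in DHX34 knockdown cells and 8.83% to 14.4% in UPF1 knockdown cells, also with overlap. For GADD45B the single NMD-annotated isoform, GADD45B-202, was listed at 0 in 7 of the 9 libraries and was at 0.0929 TPM in DHX34 knockdown replicate 2 and 0.626 TPM in UPF1 knockdown replicate 1.

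GADD45B also had retained-intron isoforms, which made up 6.89%, 0% and 14.2% of its TPM in SCR, 0%, 0% and 5.38% in DHX34 knockdown cells and 15.2%, 23.7% and 17.8% in UPF1 knockdown cells. The UPF1 knockdown lay above the other groups, at levels of at most 0.531 TPM for GADD45B-203, which was too low to be tested.

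MDM2 was read mainly as 2 coding isoforms that start in different places. MDM2-202 starts at the first exon (chr12:68808177-68808491), and MDM2-224 starts 825 bases downstream inside intron 1 (chr12:68809002-68809086), the region of the second, p53-responsive MDM2 promoter. MDM2-202 was at 7.48, 7.55 and 7.55 TPM in SCR, 7.24, 7.22 and 6.85 in DHX34 knockdown cells and 7.25, 7.34 and 7.53 in UPF1 knockdown cells. On counts it fell after UPF1 knockdown, by 0.29 on the log2 scale (edgeR adjusted p 0.00471), although its TPM overlapped with SCR and the call was lost in each fit without 1 library, and its difference after DHX34 knockdown was -0.25 (edgeR adjusted p 0.0829). MDM2-224 was at 5.97, 8.60 and 8.61 TPM in SCR, 10.4, 10.4 and 10.6 in DHX34 knockdown cells and 9.60, 10.1 and 11.7 in UPF1 knockdown cells. All 6 knockdown libraries lay above SCR, and the share of MDM2-224 in MDM2 TPM was 26.1%, 35.4% and 34.2% on average in the 3 groups. Its log2 differences on counts were 0.27 and 0.18 (edgeR adjusted p 0.464 and 0.593). Without SCR replicate 1, the lowest of its group, they were 0.12 and 0.024, and the difference after UPF1 knockdown was 0.092 without UPF1 knockdown replicate 3 and 0.28 without SCR replicate 3. In SCR replicates 1 and 2, MDM2-226 took 7.58 and 8.14 TPM and was listed at 0 in the other 7 libraries, so the isoform shares of SCR differed between its own replicates.

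An isoform of CCNG1, CCNG1-203, lay apart in SCR from both knockdowns on the TPM scale. It is below the share set for naming and was chosen after its values were seen. CCNG1-203 is annotated as a retained intron: it has 2 exons, starts 24 bases upstream of the coding isoform CCNG1-201, and runs 82 bases past the end of exon 2 through the splice site printed above. It was at 2.69, 0 and 0.950 TPM in SCR, 10.8, 11.9 and 11.2 in DHX34 knockdown cells and 11.7, 20.0 and 13.2 in UPF1 knockdown cells. All 6 knockdown libraries lay above SCR, and the knockdowns overlapped with each other. The counts behind these levels were 64, 0 and 28 in SCR, 327, 263 and 268 in DHX34 knockdown cells and 260, 555 and 401 in UPF1 knockdown cells. The transcript fits gave log2 differences of 3.02 (SE 1.17, edgeR adjusted p 0.29) and 3.36 (SE 1.16, edgeR adjusted p 0.147), so neither was called, and DESeq2 gave adjusted p of 0.0438 and 0.113. Their size rested on single SCR libraries, at 4.31 and 4.63 without SCR replicate 1 and 2.44 and 2.77 without SCR replicate 2, the library at 0, and none of the fits without 1 library called either. The retained-intron isoforms together were 1.43% ± 1.596 of CCNG1 TPM in SCR, 11.2% ± 0.414 in DHX34 knockdown cells and 14.1% ± 3.18 in UPF1 knockdown cells (SD, n = 3).

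CCNG1-201, the coding isoform, was at 69.2, 70.2 and 69.5 TPM in SCR, 82.2, 85.0 and 79.3 in DHX34 knockdown cells and 71.6, 71.0 and 69.9 in UPF1 knockdown cells. After DHX34 knockdown its log2 difference on counts was only 0.058 (SE 0.053, edgeR adjusted p 0.727). On counts it fell after UPF1 knockdown, by 0.24 on the log2 scale (edgeR adjusted p 0.00405), although its TPM overlapped with SCR, and the call was lost in each fit without 1 library. Its share of CCNG1 counts was 96.1% in SCR, 95.1% in DHX34 knockdown cells and 90.6% in UPF1 knockdown cells. CCNG1-205, an isoform without a defined coding sequence, was at 8.13, 6.27 and 10.1 TPM in SCR, 9.41, 6.28 and 7.70 in DHX34 knockdown cells and 12.1, 14.1 and 13.1 in UPF1 knockdown cells, which alone did not overlap SCR (edgeR adjusted p 0.327). Salmon divides reads between overlapping isoforms, and a short isoform weighs more in TPM than in counts.

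**Figure D4:**
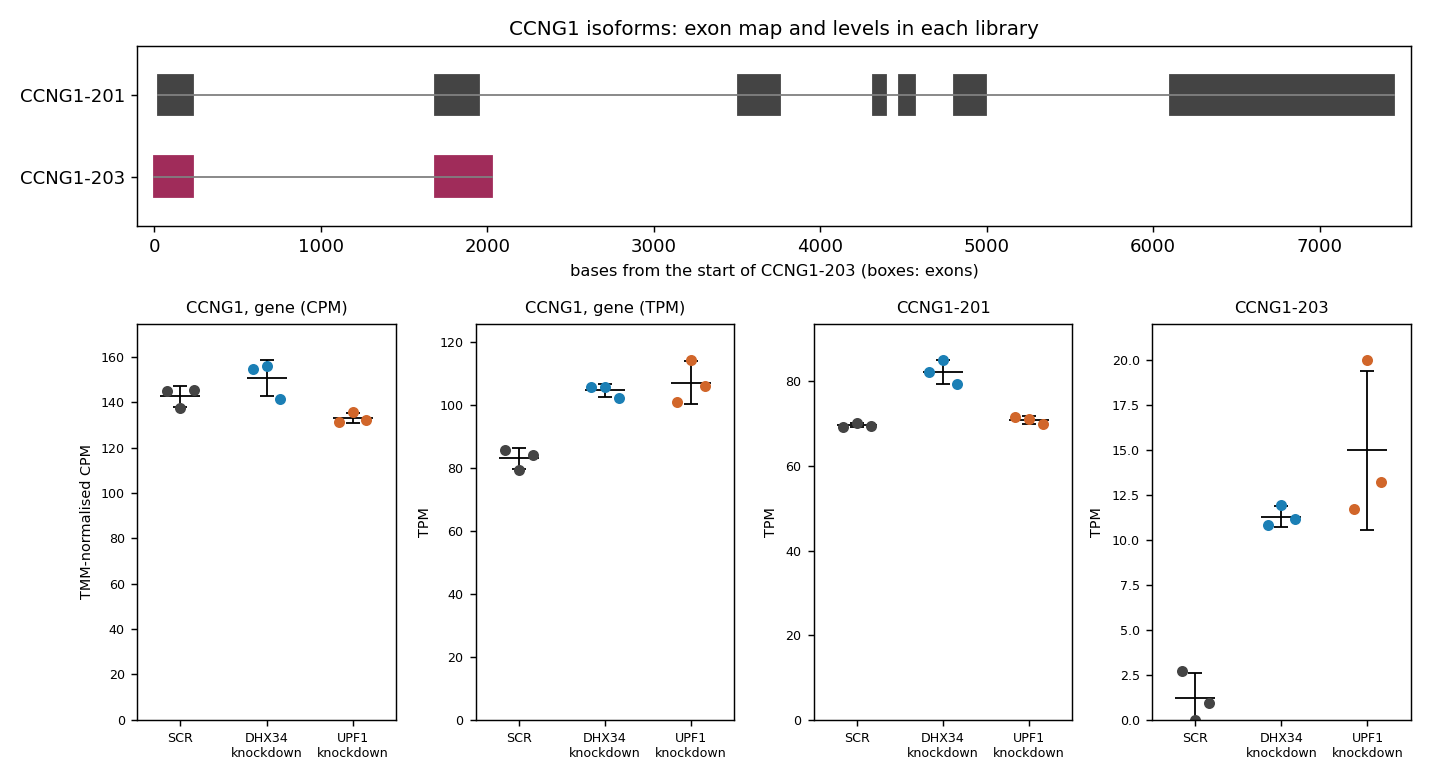
Top, exons (boxes) of CCNG1-201 and CCNG1-203 by distance in bases from the start of CCNG1-203. Bottom, CCNG1 in the 9 libraries (dots, with the group mean and SD) as gene CPM, gene TPM and the TPM of both isoforms, all from 0: CCNG1-203 is at 0 to 2.69 TPM in SCR and at 10.8 to 20.0 in the knockdowns, and the gene CPM shows no such rise.

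The annotated main transcripts of these genes were compared with those of 12741 coding genes for features linked to NMD. None of the 10 has an exon junction more than 50 bases after its stop codon, a feature of only 0.275% of the coding genes. At that rarity its absence from 10 members cannot set them apart. The models compared are coding ones, and the BTG2 isoform with such a junction is annotated as an NMD substrate instead. Upstream ATG triplets occur in the 5′ UTRs of 3 members (CDKN2C, MDM2 and BTG1), where 40.1% of the coding genes have one. The transcript taken for CDKN2C, CDKN2C-202, held only 3.63% of the CDKN2C counts in SCR, so its upstream ATG and its 3′ UTR of 364 bases describe a minor isoform of these cells. A 3′ UTR of at least 1000 bases is present in 6 members and in 55.9% of the coding genes. The longest were those of MDM2 (5695 bases), BTG1 (3802), BTG2 (2164) and CDKN1A (1532), and the 3′ UTRs of GADD45A, GADD45B and GADD45G had 560, 656 and 476 bases. The MDM2-202 described here has 7490 bases, while the MDM2-202 that was quantified, on which its TPM rests, has 12633. Among the members called after DHX34 knockdown, CDKN1A rose and BTG1 fell with long 3′ UTRs, and GADD45A fell with a short one.

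The genes most like GADD45A over the 9 libraries, by Pearson's r of log2 CPM among 10062 genes, were GRAP2 (0.99), SSBP2 (0.986), SINHCAF (0.986), PCNP (0.984) and MED21 (0.981). Like GADD45A each fell in the DHX34 knockdown, with log2 fold changes from -0.67 (GRAP2) to -0.18 (PCNP), and lay between -0.07 and -0.01 after UPF1 knockdown. For GADD45B they were DFFB (0.985), VIPAS39 (0.97), SC5D (0.97), ALAD (0.97) and TUBB2B (0.966). Their log2 differences after UPF1 knockdown ran from 0.14 (SC5D) to 0.90 (TUBB2B). The 9 points of each correlation share the 3 groups, so these are descriptions of a common pattern. The fold changes of these genes follow from their being picked over the same libraries, and are no separate result.

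Genes that work with the members were followed in 8 lists of 68 genes, of which 61 were tested. After DHX34 knockdown 3 of the 61 were called up and 7 down, after UPF1 knockdown 10 up and 13 down, and between the knockdowns 8 higher and 1 lower in the UPF1 knockdown. These are 16.4%, 37.7% and 14.8% of the 61, beside 10.4%, 25.3% and 17.4% called among all genes. The medians of the 61 were -0.04, -0.04 and -0.01 on the log2 scale.

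The GADD-named stress genes showed the widest differences between the knockdowns. DDIT4, an inhibitor of mTORC1 signalling, was at 273.2 ± 4.39 CPM in SCR, 176.9 ± 22.1 in DHX34 knockdown cells and 500.1 ± 19.0 in UPF1 knockdown cells (SD, n = 3). It fell after DHX34 knockdown (log2 fold change -0.63, edgeR adjusted p 0.000209) and rose after UPF1 knockdown (0.86, edgeR adjusted p 2.96e-09). DDIT3, the stress transcription factor CHOP, fell by 0.36 and rose by 0.36 (edgeR adjusted p 0.00158 and 4.87e-05). The direct differences were 1.51 for DDIT4 and 0.73 for DDIT3 (edgeR adjusted p 1.30e-07 and 1.66e-06), and PPP1R15A, the phosphatase subunit that reverses eIF2alpha phosphorylation, was 0.15 higher in the UPF1 knockdown (edgeR adjusted p 0.0036). GADD45GIP1, a mitochondrial ribosome protein that binds GADD45 proteins, fell after UPF1 knockdown by 0.40 (edgeR adjusted p 9.24e-07).

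Of the 9 partners of GADD45 proteins, 1 was called after DHX34 knockdown (11.1%, beside 10.4% of all genes) and 5 after UPF1 knockdown (55.6%, beside 25.3%). MAP3K4, the kinase that GADD45 proteins activate, rose after DHX34 knockdown by 0.25 (84.7 ± 2.53 to 100.6 ± 1.45 CPM, edgeR adjusted p 0.000958). It rose alike after UPF1 knockdown, by 0.24 (edgeR adjusted p 8.77e-05), with a direct difference between the knockdowns of 0.016 (edgeR adjusted p 0.74). After UPF1 knockdown the replication clamp gene PCNA fell by 0.29, CDK1 by 0.28 and its cyclin CCNB1 by 0.30 (edgeR adjusted p 3.42e-05, 1.33e-05 and 9.86e-06). No partner was called between the knockdowns by edgeR, with 4 at an unadjusted p below 0.05 and 2 called by DESeq2. None of the 3 tested further CDK inhibitors was called in any comparison by edgeR or DESeq2, with 1 at an unadjusted p below 0.05 in each.

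Among the 12 G1 cyclins, CDKs and pocket proteins, CCND2, the gene of cyclin D2, fell in both knockdowns, by 0.55 and 0.52 (66.2 ± 2.43 CPM in SCR, 45.1 ± 1.56 and 46.3 ± 2.28 in the DHX34 and UPF1 knockdowns, edgeR adjusted p 1.72e-05 and 2.79e-06). After UPF1 knockdown CDK6 rose by 0.23 and RBL1, the pocket protein p107, by 0.24 (edgeR adjusted p 0.000852 and 0.00136). Among the 7 p53 and MDM2 partners, RPL5 and RPL11, ribosomal proteins that bind MDM2, fell in both knockdowns, with the reservation that pseudogene copies can share their reads. Over all genes the log2 fold change also rose with transcript length (Spearman's correlation 0.218 after DHX34 knockdown and 0.150 after UPF1 knockdown). The part of this trend in the falls of these genes, and of RPS27L below, was not tested. RPL11 fell by 0.40 and 0.33 (edgeR adjusted p 8.57e-05 and 9.49e-06), and RPL5 by 0.28 and 0.29 (0.00288 and 1.61e-05). MDM4, the MDM2 homologue that also inhibits p53, rose after UPF1 knockdown by 0.52 (23.9 ± 1.53 to 34.5 ± 3.14 CPM, edgeR adjusted p 8.61e-05).

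Of 17 tested p53 target genes outside the set, 2 rose and 1 fell after DHX34 knockdown, and 2 rose and 3 fell after UPF1 knockdown. These shares, 17.6% and 29.4%, stand beside 10.4% and 25.3% of all genes. FDXR, the mitochondrial ferredoxin reductase, rose by 0.70 and 0.28 (51.6 ± 3.48 CPM in SCR, 83.9 ± 5.87 and 62.9 ± 0.878 in the knockdowns, edgeR adjusted p 3.86e-05 and 0.000494). TNFRSF10B, a death receptor gene, rose after DHX34 knockdown by 0.40 (edgeR adjusted p 0.000908), and SESN2, a sestrin, rose after UPF1 knockdown by 0.64 (edgeR adjusted p 6.86e-08). RPS27L fell by 0.27 and 0.32 (edgeR adjusted p 0.00208 and 0.000583). Between the knockdowns BBC3, which encodes the proapoptotic protein PUMA, was 0.40 higher in the UPF1 knockdown (edgeR adjusted p 0.000211).

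In the list of further BTG/TOB genes and deadenylase subunits, PABPC1, the poly(A)-binding protein, fell by 0.18 and 0.17 (edgeR adjusted p 0.00445 and 0.000117), although on log2(TPM + 0.5) its differences were 0.06 and 0.10. BTG3 fell after UPF1 knockdown by 0.32 (edgeR adjusted p 0.00102). None of the 3 tested cyclin G relatives was called by edgeR in any comparison. DESeq2 called 1 of them after UPF1 knockdown, and 1, 1 and 0 had an unadjusted p below 0.05 in the 3 comparisons.

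**Figure D5:**
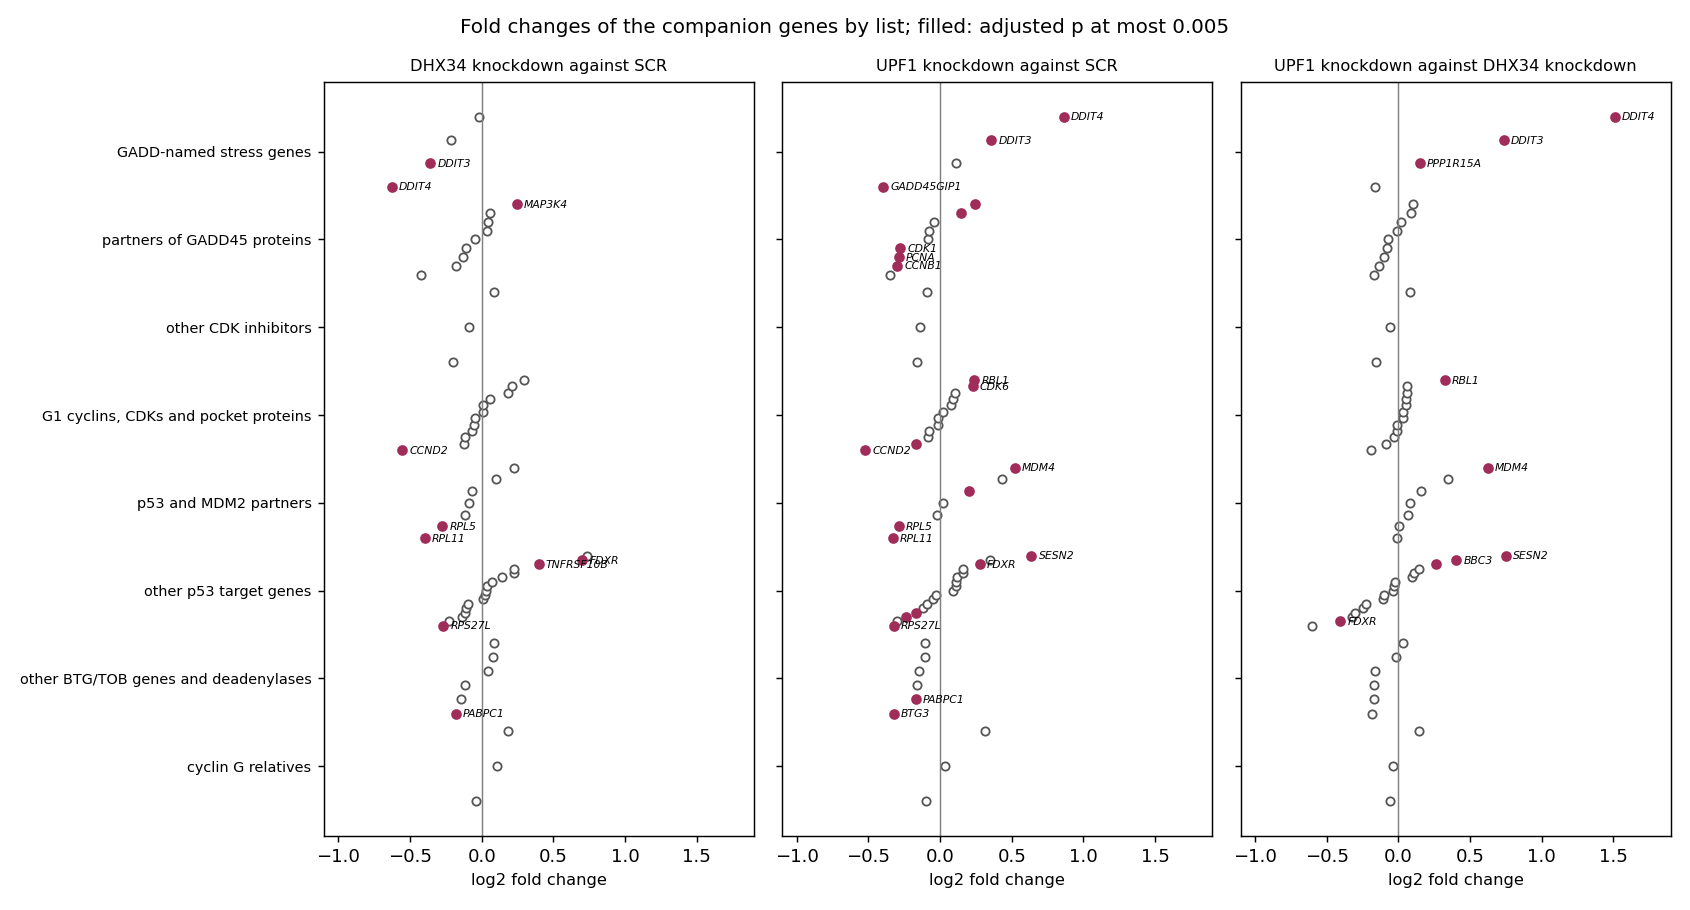
Log2 fold change (horizontal axis) of each tested gene of the 8 lists (rows) in the 3 comparisons (panels), filled where the edgeR adjusted p was at most 0.005. DDIT4 and DDIT3 lie left of 0 after DHX34 knockdown and right of 0 after UPF1 knockdown, and CCND2, RPL5, RPL11 and RPS27L lie left of 0 after both.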

How the data were processed

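RNA of 9 K562 libraries was sequenced after poly(A) selection. The authors quantified reads with salmon against Ensembl release 93 transcripts on GRCh38, and the deposited tables give, for each of 203027 transcripts, an expected count and a TPM. Identifiers were joined to GENCODE release 44, which matched 97.9%, and 85.8% of these had the same length in both. Deposited tables of the authors' gene and splicing tests were not used. Expected counts were summed per gene, rounded, scaled by TMM and tested in edgeR 4.0.16 (R 4.3.3) by quasi-likelihood fits on the 6 libraries of each comparison, with filterByExpr at a minimum count of 10 and Benjamini-Hochberg adjustment over all genes. Transcripts were fitted alike. Alternatives used DESeq2 1.42.0 and limma 3.58.1, on log2(TPM + 0.5) with a pseudocount of 0.5.

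The fits were tested on simulated data: 99.5% to 100% of 200 genes changed 2-fold were recovered, with 5 to 7 false calls. The changed genes were drawn from those with a mean of at least 5 CPM. GADD45B and GADD45G lie below that level and no called member changed 2-fold, so this recovery does not describe such cases. The members and lists were chosen with earlier results of these data known. All members are named. Isoforms were to be named where they hold at least 10% of a gene's counts in a group or were called. Some isoforms of GADD45B, GADD45G, CDKN1A, CDKN2C and BTG2 that reached this share are not described. The one of GADD45B held 29 counts in a single DHX34 knockdown library and none elsewhere. The one of CDKN1A held 29, 91 and 0 counts in the SCR libraries. At most 3 called genes a list with a mean of at least 5 CPM are named, those that changed most, besides the 5 genes most like GADD45A and GADD45B. The other isoforms described were chosen after their values were seen. Of each list the tested members are counted, and their counts at an unadjusted p below 0.05 or by DESeq2 have no share over all genes beside them. Library totals are in expected counts, and low counts limit the precision of GADD45B, GADD45G and single isoforms most.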

Additional observations from a re-analysis of the deposited data

Results flagged for a closer look

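For 3 growth arrest genes the effects of the knockdowns, each against the same SCR libraries, differed when the knockdowns were compared directly. The log2 difference, UPF1 knockdown minus DHX34 knockdown, was 0.38 for GADD45A (edgeR adjusted p 2.31e-05), 0.46 for BTG1 (edgeR adjusted p 3.12e-05) and -0.40 for BTG2 (edgeR adjusted p 0.000144). All 3 UPF1 knockdown libraries lay on the same side of all 3 DHX34 knockdown libraries for each gene.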

How the results depend on the processing

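The members called after DHX34 knockdown numbered 3 in all 6 fits without 1 library and 2 to 4 under the other settings. After UPF1 knockdown 2 were called, and 1 to 2 without 1 library (1 without SCR replicate 3 or any UPF1 knockdown replicate), 5 with DESeq2, 4 without a filter on low counts, 7 with the length trend removed (chosen after seeing the data, as was limma on log2 CPM) and 7 at an adjusted p of at most 0.05. Over all genes, after UPF1 knockdown, DESeq2 called 5099 of 17184 and the fit without the filter 5454 of 29022. With the length trend removed it was 4256 of 17184. Between the knockdowns 3 members were called, and 1 on log2(TPM + 0.5), which called 1441 of 17435 genes, and 5 at 0.05. The share of all genes or transcripts at 0.05 is not given here. The counts in this paragraph show how calls depend on the setting and are no result about the members. The member isoforms called after UPF1 knockdown, 2, became 0 with DESeq2 size factors, without the filter and in every fit without 1 library (0 to 0), 7 with DESeq2 and 6 at 0.05. After DHX34 knockdown 0 became 3 with DESeq2 and 3 at 0.05, and between the knockdowns 0 became 5 and 5. The genes of the 8 lists called after DHX34 knockdown, 10, became 5 to 11 without 1 library (5 without SCR replicate 1, SCR replicate 3 or DHX34 knockdown replicate 1), 6 with length-scaled counts and 23 at 0.05. After UPF1 knockdown 23 became 35 at 0.05. Between the knockdowns 9 became 16 with DESeq2, 16 without the filter, 5 on log2(TPM + 0.5), 21 at 0.05 and 7 to 17 without 1 library (17 without DHX34 knockdown replicate 3). The causes were not tested.

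Signs turned mostly on log2(TPM + 0.5), where the median of all genes lay higher (0.134 and 0.168 after DHX34 and UPF1 knockdown). There CDKN1B was at 0.001, CDKN2C at 0.025, MDM2 at 0.019 and PABPC1 at 0.055 after DHX34 knockdown, GADD45A at 0.191, CDKN1B at 0.084, CDKN2C at 0.130, MDM2 at 0.064, BTG1 at 0.126, CCNG1 at 0.365 and PABPC1 at 0.104 after UPF1 knockdown, and CDKN1A at 0.008 and CCNG1 at 0.032 between the knockdowns. After UPF1 knockdown CCNG1 was at 0.149 with length-scaled counts, and GADD45A at 0.002 in 1 fit of all 9 libraries and at 0.021 with the length trend removed. Without 1 library GADD45G ran from -0.389 to 0.336 after DHX34 knockdown (it was not tested without DHX34 knockdown replicate 1), GADD45A from -0.032 to 0.013 and GADD45A-201 from -0.072 to 0.222 after UPF1 knockdown, and CDKN1A from -0.082 to 0.020 and MDM2 from -0.043 to 0.040 between the knockdowns. Of these only PABPC1, after either knockdown, was called in the reported fits.

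Replicate numbers are shared between groups, but the deviations of same-numbered libraries correlated at -0.389 to 0.279, so the numbers were not taken to pair the libraries. With a replicate block the called members were 3, 3 and 3 (MDM2 was gained after UPF1 knockdown), member isoforms after UPF1 knockdown were 0, and called list genes were 6, 23 and 8.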
